A study of Mus musculus with 101 samples.

Results

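Peg3, Zim1 and Usp29 are 3 imprinted genes that lie side by side on mouse chromosome 7. Their rows were taken by gene identifier from 2 tables of estimated read counts, in which they are 3 of 24475 genes. They were singled out because of how they differed when the activin gene Inhbe was added or removed, so those differences are given below as descriptions without a test. Their responses to diet and their differences between fat depots were tested. Those tests use the same libraries, so their p-values are not free of the choice. In whole fat, fewer cells that make a transcript and less of it per cell cannot be told apart.

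All mice were male and on the C57BL/6NTac background, and 101 libraries of subcutaneous (SC) or epididymal (EPI) fat were sequenced. In the first experiment, wild-type mice on chow received an adeno-associated virus of serotype AAV8, built to act in liver, that carried either GFP (GFP AAV) or mouse Inhbe (mInhbe AAV), with 10 libraries per group and depot. In the second, wild-type (WT) and Inhbe knockout (KO) mice, given no virus, ate chow or a high-fat diet (HFD). That experiment has 8 WT chow, 7 KO chow and 8 KO HFD libraries from each depot. It has 8 epididymal but 7 subcutaneous WT HFD libraries. The labels name neither the knockout allele, nor the promoter of the virus, nor the mice's ages. The labels call the libraries biological replicates and do not say which SC and EPI libraries came from 1 mouse.

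Library totals ran from 12970508 to 20170739 counts, and levels are given as counts per 1000000 (CPM). Inhbe had 35 to 846 reads per library in SC fat and 4 to 232 in EPI fat after mInhbe AAV, and 0 reads in all GFP AAV libraries. The counts do not separate reads of the virus from reads of the mouse gene. In the knockout experiment Inhbe had at most 5 reads in any library, WT included, so fat RNA does not check the genotype labels. Transcripts that define adipocytes (Adipoq, Plin1, Fabp4, Cidec and Lep) summed to 7610 CPM or more in every library. In SC fat of the knockout experiment, 4 WT libraries stood apart, with 4.02 to 6.31 CPM of lymph node transcripts against 295 CPM or more in the other WT libraries. These are replicate 1 on chow and replicates 1, 2 and 4 on HFD. Epididymis transcripts reached 14700 CPM in EPI fat and at most 0.414 CPM in SC fat.

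Imprinted genes are transcribed mainly from the copy inherited from 1 parent. In this domain Peg3 and Usp29 are paternally expressed and Zim1 is maternally expressed, and a shared control region at the start of Peg3 carries the parental methylation mark. Peg3 and Zim1 encode zinc finger proteins that bind DNA, and Usp29 encodes a ubiquitin-specific protease. Loss of Peg3 in mice alters growth, maternal behaviour and energy balance. Inhbe encodes the liver-made subunit of activin E, which acts on fat through the receptor ALK7 and the SMAD2 and SMAD3 transcription factors. The counts do not separate parental copies, so nothing here bears on which copy was read.

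On build GRCm38.p6 (RefSeq), Zim1 (gene 22776) spans 6674444 to 6696540 and Peg3 (gene 18616) spans 6703892 to 6730462, both on the minus strand. Usp29 (gene 57775) spans 6730559 to 6967220 on the plus strand. Peg3 and Usp29 are read away from each other, and 96 bases lie between their annotated ends. That stretch and the bases just upstream of Zim1 are shown because they begin the transcripts measured below. Both are written 5′ to 3′ on the minus strand, the strand of Peg3 and Zim1, with CG dinucleotides, where methylation occurs, in capitals. The first is chr7:6730463-6730558 and the second chr7:6696541-6696682.
Peg3 to Usp29: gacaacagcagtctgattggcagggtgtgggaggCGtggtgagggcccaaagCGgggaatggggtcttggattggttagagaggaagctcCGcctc
Upstream of Zim1: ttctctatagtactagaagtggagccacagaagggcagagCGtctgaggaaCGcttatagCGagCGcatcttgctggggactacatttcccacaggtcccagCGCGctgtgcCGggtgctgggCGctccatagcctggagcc

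The RefSeq promoter table held a window for all 3 genes, from 250 bases before to 50 bases after the start site. The windows of Peg3 and Usp29 share 263 bases, so they are not independent. They hold 13 CG dinucleotides for Peg3, 17 for Usp29 and 20 for Zim1, against a median of 7 over 32851 windows. The GC-rich SMAD motif GGCGC, read on both strands, matched 2 times for Peg3, 4 times for Usp29 and 1 time for Zim1, where GGCGCC counts on each strand. It was found in 36.9% of all windows. The SMAD palindrome GTCTAGAC (0.213% of all windows) and the YY1 core CCATCTT (6.34%) were in none of the 3 windows.

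Peg3 was the most abundant of the 3. Its mean level was 202 ± 120 CPM (SD, n = 7) in SC fat of WT mice on HFD and 173 ± 33.1 CPM (n = 10) in SC fat after mInhbe AAV. EPI fat after mInhbe AAV followed with 146 ± 69.7 CPM (n = 10). WT chow SC fat was at 96.6 ± 41.1 CPM (n = 8), WT HFD EPI fat at 84.7 ± 47.4 CPM (n = 8) and WT chow EPI fat at 80.5 ± 26.0 CPM (n = 8). GFP AAV fat was lower, at 67.0 ± 41.1 CPM in EPI and 43.3 ± 14.3 CPM in SC (n = 10 each). The 4 knockout groups were at the bottom. KO chow SC fat had 18.5 ± 4.58 CPM (n = 7), KO chow EPI fat 17.3 ± 4.32 CPM (n = 7), KO HFD SC fat 11.7 ± 3.24 CPM (n = 8) and KO HFD EPI fat 8.94 ± 4.47 CPM (n = 8).

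Along that order, 1 of 11 pairs of neighbouring groups had means further apart than their SDs reach, GFP AAV SC and KO chow SC. The order is a description, because the 2 experiments are in separate tables, and tests were made only within each table. Per kilobase of exon, Peg3 in WT HFD SC fat was at 15.2 CPM, Zim1 at 1.05 CPM and Usp29 at 0.0162 CPM.

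**Figure D1:**
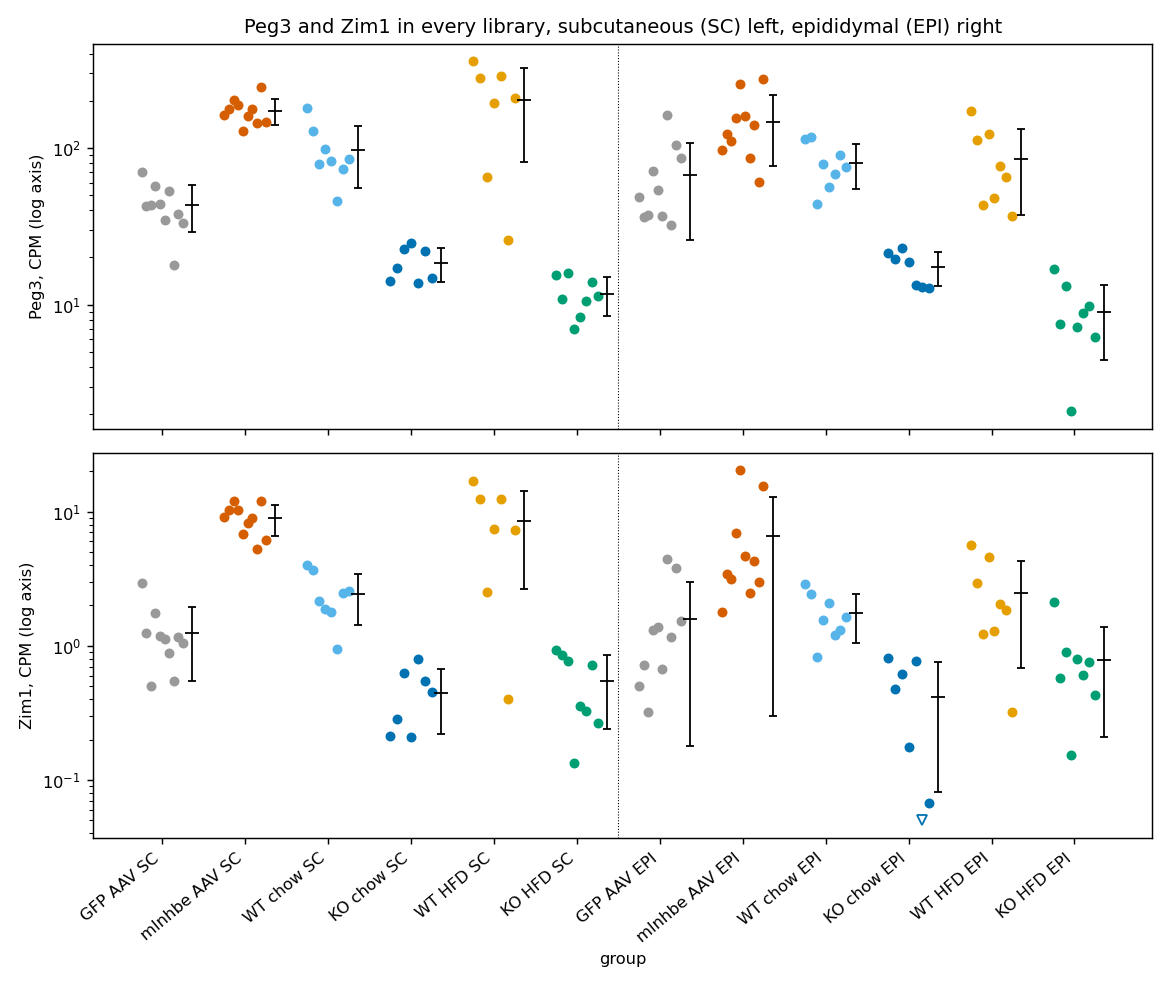
Peg3 (top) and Zim1 (bottom) in each of the 101 libraries, in CPM on a log axis, by group, with SC fat left and EPI fat right of the dotted line. Points are libraries, black bars are mean ± SD, and the open triangle is a library with 0 Zim1 reads, drawn at 0.05; all KO libraries lie at or below 24.6 CPM of Peg3.

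Zim1 was ordered much like Peg3 at a far lower level. It was highest in SC fat after mInhbe AAV (8.90 ± 2.33 CPM, n = 10) and in SC fat of WT mice on HFD (8.46 ± 5.83 CPM, n = 7). EPI fat after mInhbe AAV had 6.55 ± 6.26 CPM (n = 10), where 2 libraries at 20.3 and 15.5 CPM carried the mean and the median was 3.84 CPM. In the KO groups mean Zim1 lay between 0.417 and 0.789 CPM, on 0 to 32 reads per library. For Zim1, 0 of 11 neighbouring pairs of groups were separated beyond their SDs.

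Usp29 was close to the limit of detection. The 101 libraries held 112 Usp29 reads in all, at most 9 in any of them and at least 1 in 41. WT HFD SC fat had 32 of these reads over 7 libraries, and each of the 7 had at least 2. SC fat after mInhbe AAV had 33 reads over 10 libraries, and EPI fat after mInhbe AAV had 17. The 30 KO libraries together had 3 Usp29 reads, in 2 libraries, and the 15 KO libraries of SC fat had 0. Usp29 did not pass the low-count filter of any fit, so it enters no genome-wide test. A library with 0 reads allows up to 0.149 to 0.231 CPM, taking 3 counts as the limit.

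**Figure D2:**
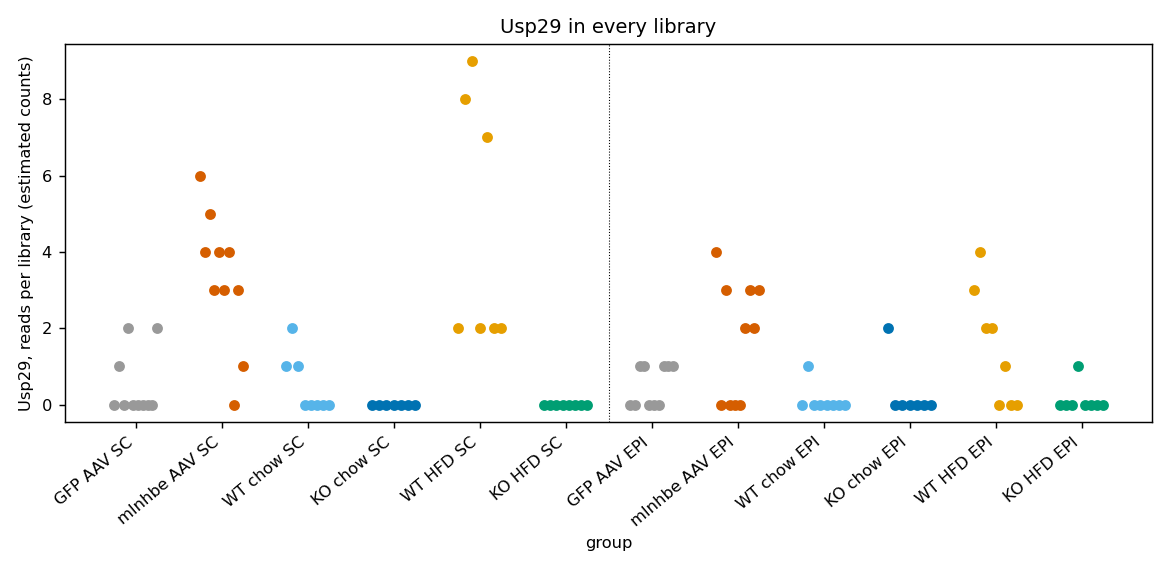
Usp29 reads (estimated counts) in each library by group, with SC fat left and EPI fat right of the dotted line; each point is 1 library. All 7 WT HFD SC libraries have 2 reads or more, and all KO SC libraries have 0.

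The rest of the domain was nearly silent. Zim2, a non-coding transcript in mouse, had 5 reads in all 101 libraries, Zim3 had 0, and Peg3os, an antisense transcript within Peg3, had 11. The labels do not say whether counting used strand, so Peg3os reads cannot be told apart from Peg3 reads. Zfp264 was not analysed here. Usp29 and Zim3 overlap on the chromosome.

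mInhbe AAV went with higher Peg3 and Zim1 in SC fat, in every library. Peg3 ran from 17.9 through a median of 42.7 to 70.0 CPM in the GFP AAV libraries and from 129 through 169 to 243 CPM with mInhbe AAV. Zim1 ran from 0.501 through 1.15 to 2.95 CPM with GFP AAV and from 5.27 through 9.09 to 12.0 CPM with mInhbe AAV. Neither gene's groups overlapped. Over all 13990 genes fitted, 0.229% were higher with no overlap, and since the genes were chosen on this contrast nothing is read from that share. The log2 fold changes, fitted by edgeR, were 1.89 ± 0.18 (SE) for Peg3 and 2.73 ± 0.25 for Zim1. Usp29 was above every GFP AAV library in 8 of 10 mInhbe AAV libraries, on 0 to 6 reads against 0 to 2. Other cell markers differed in this contrast too. Of 5 adipocyte genes 4 were called lower with mInhbe AAV (Adipoq, Fabp4, Cidec and Lep), and their list summed to 14200 to 17700 CPM with GFP AAV and 10200 to 15800 CPM with mInhbe AAV. Of 9 progenitor and fibroblast genes 4 were called higher (Pdgfra, Dpp4, Dcn and Lum), and of 8 lymph node genes 2 (Ms4a1 and Cr2). Of all 13990 genes 27.2% were called in this contrast, 2204 higher and 1597 lower, so little is read from these counts. The sum of the progenitor and fibroblast list hardly differed, with medians of 6320 CPM with GFP AAV and 6310 CPM with mInhbe AAV. It ran from 5410 to 8210 CPM and from 4960 to 9300 CPM. Lymph node transcripts summed to 424 to 866 CPM with GFP AAV and 606 to 1120 CPM with mInhbe AAV. The liver list (Alb, Apoa1, Ttr, Ahsg and Apoh) summed to 16.8 to 44.3 CPM and 2.70 to 13.1 CPM, with no overlap. The part of the adipocyte and liver lists in the Peg3 and Zim1 values was not tested. Over 7 alternatives, fits with a lymph node score and with a progenitor and fibroblast score among them, the values lay between 1.87 and 2.29 for Peg3 and between 2.70 and 3.19 for Zim1.

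In EPI fat the estimates for the same contrast were smaller and the groups overlapped. Peg3 ran from 32.4 through 51.2 to 161 CPM with GFP AAV and from 60.6 through 131 to 274 CPM with mInhbe AAV. Zim1 ran from 0.323 through 1.23 to 4.42 CPM and from 1.79 through 3.84 to 20.3 CPM. The log2 fold changes were 1.10 ± 0.32 for Peg3 and 2.01 ± 0.51 for Zim1. The highest GFP AAV library for both genes was replicate 7, which also stood apart in epididymis transcripts, at 2.60 CPM against a group median of 5860 CPM. Over 8 alternatives, 1 of them without replicates 7 and 8, the values lay between 1.06 and 1.31 for Peg3 and between 1.86 and 2.36 for Zim1. The EPI minus SC difference between the responses was -0.80 ± 0.37 for Peg3 and -0.74 ± 0.57 for Zim1, given without a test. Over 6 alternatives it lay between -0.81 and -0.58 for Peg3 and between -0.92 and -0.38 for Zim1.

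The knockout went with lower Peg3 and Zim1 in both depots and on both diets. Peg3 lay between 2.08 and 24.6 CPM in the 30 KO libraries and between 25.7 and 356 CPM in the 31 WT libraries, with no overlap over both depots and diets. The share of all genes with no overlap over all these libraries was not computed. Since the genes were chosen on this response, nothing is read from the gap. Zim1 lay between 0 and 2.11 CPM in KO and between 0.323 and 16.8 CPM in WT fat, and these ranges overlapped.

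On chow in SC fat, Peg3 ran from 13.7 through 17.1 to 24.6 CPM in KO and from 45.8 through 83.9 to 180 CPM in WT mice. Zim1 ran from 0.210 through 0.451 to 0.800 CPM in KO and from 0.953 through 2.31 to 4.01 CPM in WT mice. The log2 fold changes were -2.37 ± 0.38 for Peg3 and -2.39 ± 0.52 for Zim1. Both genes were lower with no overlap, which held for 0.12% of the 14220 genes fitted. In EPI fat on chow the fold changes were nearly the same size, at -2.20 ± 0.33 for Peg3 and -2.04 ± 0.56 for Zim1. There too neither gene overlapped between genotypes, a pattern shared by 0.638% of 15042 genes. Peg3 was at 12.7 to 22.9 CPM in KO and 43.8 to 118 CPM in WT EPI fat, and Zim1 at 0 to 0.813 CPM and 0.826 to 2.9 CPM. Usp29 was at the limit there, with 2 reads over the 7 KO libraries (mean 0.0179 CPM) and 1 read over the 8 WT libraries (mean 0.0076 CPM).

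On HFD the estimated fold change of Peg3 was larger in size than on chow. In SC fat Peg3 ran from 6.94 through 11.1 to 16.0 CPM in KO and from 25.7 through 208 to 356 CPM in WT mice, a log2 fold change of -3.95 ± 0.39. Zim1 ran from 0.133 through 0.539 to 0.928 CPM and from 0.401 through 7.40 to 16.8 CPM, a log2 fold change of -3.77 ± 0.49. The Zim1 groups overlapped through 1 WT library, replicate 6. Usp29 had 0 reads in KO SC fat on HFD, where 3 counts over the whole group give a limit of 0.0239 CPM. The pooled WT level was 0.295 CPM (95% counting interval 0.202 to 0.416 CPM), 12.3 times that limit. This ratio leaves out the counting error of the WT level. No overlap and lower held for 7.82% of genes in this contrast. In EPI fat on HFD the log2 fold changes were -3.10 ± 0.33 for Peg3 and -1.49 ± 0.51 for Zim1. Peg3 did not overlap there (2.08 to 16.8 CPM against 37.0 to 172 CPM), which held for 10.6% of genes, while Zim1 did (0.154 to 2.11 CPM against 0.323 to 5.6 CPM).

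The change of the knockout difference with diet was -1.58 ± 0.51 for Peg3 and -1.38 ± 0.72 for Zim1 in SC fat, and -0.89 ± 0.44 and 0.55 ± 0.73 in EPI fat, again as descriptions. Several markers moved with genotype. The liver list summed to 71.6 to 103 CPM in KO and 17.2 to 37.0 CPM in WT SC fat on chow. Macrophage transcripts summed to 455 to 1070 CPM in KO and 1930 to 2530 CPM in WT EPI fat on HFD. Of 6 macrophage genes 6 were called lower in KO, where 37.2% of all 15042 genes were called, 2559 higher and 3031 lower. In that contrast the adipocyte list summed to 18400 to 22600 CPM in KO and 11100 to 18000 CPM in WT mice, with 4 of 5 genes called higher in KO. The progenitor and fibroblast list summed to 3750 to 6410 CPM and 7690 to 10700 CPM, with 5 of 9 called lower. With that list's score in the fit the Peg3 value was -2.70 and the Zim1 value -1.30. Of 4 brown or beige fat genes 3 were called higher in KO (Cidea, Dio2 and Cox7a1). The liver genes Alb and Ahsg were called lower in KO there, but WT replicates 4 and 5 stood apart in liver transcripts, at 1030 and 4090 CPM. The median of the liver list went the other way, at 17.3 CPM in KO (15.7 to 52.5 CPM) and 3.14 CPM in WT mice. The part of the adipocyte, macrophage, liver and brown fat lists in the Peg3 and Zim1 values was not tested.

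**Figure D3:**
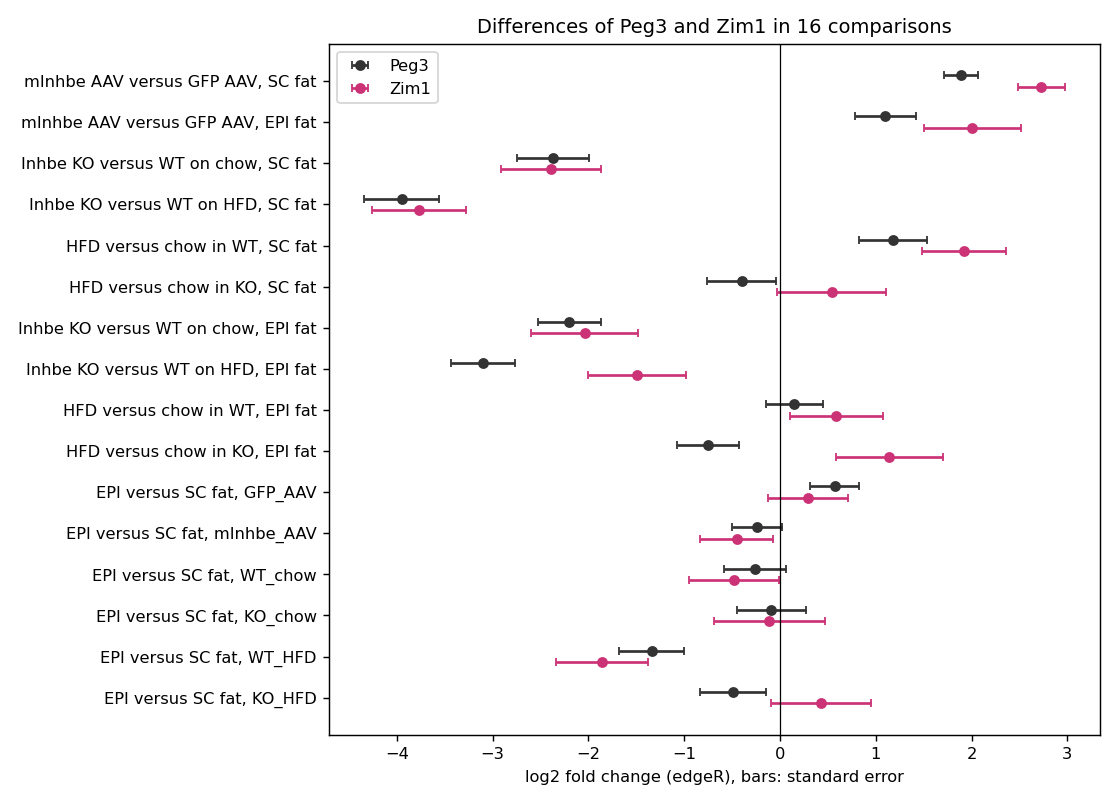
Log2 fold changes of Peg3 (dark) and Zim1 (pink) in 16 comparisons, from edgeR fits, with bars of 1 standard error; SC is subcutaneous and EPI epididymal fat. Both genes are above 0 with mInhbe AAV and below 0 in the knockout, and they part in EPI fat of KO mice on HFD (-0.75 for Peg3 and 1.14 for Zim1).

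High-fat diet raised Peg3 and Zim1 in SC fat of WT mice. Peg3 ran from 45.8 through 83.9 to 180 CPM on chow and from 25.7 through 208 to 356 CPM on HFD. Its log2 fold change was 1.18 ± 0.35 (edgeR quasi-likelihood test, Benjamini-Hochberg adjusted p = 0.00818). Zim1 ran from 0.953 through 2.31 to 4.01 CPM on chow and from 0.401 through 7.40 to 16.8 CPM on HFD, a log2 fold change of 1.92 ± 0.44 (edgeR adjusted p = 0.000719). For each gene, 5 of 7 HFD libraries were above every chow library and 1, replicate 6, was below all of them. In the same contrast 44.1% of the 14220 genes tested were called, and 22.6% were called higher.

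The HFD libraries were uneven. Replicates 1, 2 and 4, which lack lymph node transcripts, had 356, 280 and 193 CPM of Peg3, and the chow library that lacks them had 180 CPM, the highest of its group. Without those 4 libraries the Peg3 change was 0.96 (edgeR adjusted p = 0.0354) and the Zim1 change 1.52 (adjusted p = 0.0144). With a lymph node score in the fit Peg3 was at 0.78 (adjusted p = 0.0458). Replicate 6, at 25.7 CPM of Peg3 and 0.401 CPM of Zim1, was the library with the most liver transcript, 199 CPM against a group median of 8.42 CPM. Fitting the 2 groups alone gave Peg3 an edgeR adjusted p of 0.0522, above the threshold of 0.05.

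Usp29 also rose with HFD in WT SC fat. It went from 0.0311 ± 0.0475 CPM (n = 8) to 0.293 ± 0.208 CPM (n = 7), with 6 of 7 HFD libraries above every chow library (exact permutation test, two-sided, p = 0.000622, adjusted p = 0.00622 over 10 Usp29 comparisons). The change rests on 4 reads in all on chow and 32 on HFD. The most Usp29 reads were in replicates 3, 2 and 5, with 9, 8 and 7, and replicate 3 was among the lowest of the group for Peg3, at 64.9 CPM.

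Among markers of other cells in WT SC fat, HFD raised 3 of 6 macrophage genes and lowered 0, where 22.6% of all genes were called higher. Of 9 progenitor and fibroblast genes, 1 rose (Lum) and 1 fell (Dpp4). Progenitor and fibroblast transcripts summed to 4250 to 14000 CPM on chow and 4400 to 12200 CPM on HFD. With a score of that list in the fit the Peg3 change was 1.18 and the Zim1 change 1.96. The score is a mean of marker levels and not a count of cells. The part of these cells in the diet change was not tested.

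In KO mice HFD did not pass the test for either gene in SC fat. Peg3 differed by -0.40 ± 0.36 (edgeR adjusted p = 0.471) and Zim1 by 0.54 ± 0.57 (adjusted p = 0.532), where 20.7% of genes were called. Peg3 was at 6.94 to 16.0 CPM on HFD and 13.7 to 24.6 CPM on chow, and 5 of 8 HFD libraries were below every chow library. Usp29 had 0 reads in both groups.

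In EPI fat of WT mice neither gene passed the test either, where 54.1% of 15042 genes did. Peg3 ran from 43.8 through 77.0 to 118 CPM on chow and from 37.0 through 70.9 to 172 CPM on HFD, a difference of 0.15 ± 0.30 (edgeR adjusted p = 0.693). Zim1 differed by 0.59 ± 0.49 (adjusted p = 0.315). Usp29 had 1 read over 8 chow libraries and 12 over 8 HFD libraries (exact permutation test, two-sided, p = 0.0256, adjusted p = 0.101). In the same libraries all 6 macrophage genes rose, and their sum went from 396 to 722 CPM on chow to 1930 to 2530 CPM on HFD. With the progenitor and fibroblast score in the fit, the Peg3 difference was -0.06.

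In EPI fat of KO mice the estimates for Peg3 and Zim1 had opposite signs, and neither passed the test. Peg3 ran from 12.7 through 18.6 to 22.9 CPM on chow and from 2.08 through 8.15 to 16.8 CPM on HFD, a difference of -0.75 ± 0.32 (edgeR adjusted p = 0.0655, from 0.0298 to 0.121 over 8 alternatives). Zim1 ran from 0 through 0.478 to 0.813 CPM and from 0.154 through 0.684 to 2.11 CPM, a difference of 1.14 ± 0.56 (adjusted p = 0.104, from 0.0446 to 0.153 over 7 alternatives). In this contrast 38.7% of genes were called. Here 6 of 8 HFD libraries had less Peg3 than any chow library.

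Zim1 reads per Peg3 read were highest in this group. Pooled over libraries, Zim1 came to 2.15% to 5.18% of the Peg3 reads in 11 groups and to 8.79% in EPI fat of KO mice on HFD. In that group the share ran from 6.76% through 7.52% to 12.5%, against 0% through 2.44% to 5.82% in KO EPI fat on chow, and the 2 ranges did not overlap. On the log2 scale, with 0.5 added to each count, the difference was 2.37 (exact permutation test, two-sided, p = 0.000311, adjusted p = 0.00311 over 10 ratio comparisons), with 8 of 8 HFD libraries above all 7 chow libraries. Against SC fat of the same KO HFD group the difference was 0.985 (p = 0.000777, adjusted p = 0.00389, same test). The chow mean is pulled down by a library with 0 Zim1 reads, and leaving out each library in turn gave 1.90 to 2.68. Zim1 had 2 to 32 reads per library in the HFD group and 0 to 13 on chow, so each share is imprecise. This ratio was tested after the levels had been seen. The other 8 ratio comparisons of diet or depot did not pass after adjustment, from 0.0771 to 0.469.

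**Figure D4:**
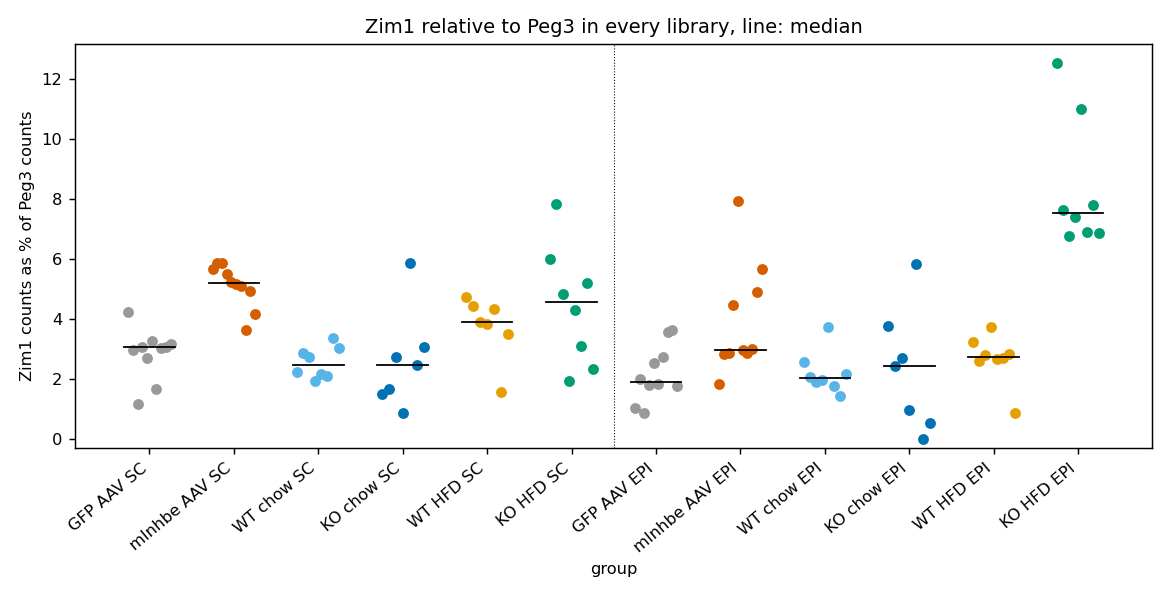
Zim1 reads as a percentage of Peg3 reads in each library by group, with SC fat left and EPI fat right of the dotted line and a line at each group's median. The 8 KO HFD EPI libraries lie between 6.76% and 12.5%, above all 7 KO chow EPI libraries.

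A depot difference was called in 1 of 6 groups. In WT mice on HFD, EPI fat had less Peg3 than SC fat (log2 fold change -1.34 ± 0.34, edgeR adjusted p = 0.00114) and less Zim1 (-1.86 ± 0.48, adjusted p = 0.00168). Peg3 ran from 37.0 through 70.9 to 172 CPM in EPI and from 25.7 through 208 to 356 CPM in SC fat, and of 15480 genes 40.8% were called and 18.9% were called lower in EPI fat. Without the 3 WT HFD SC libraries and the WT chow SC library that lack lymph node transcripts, the differences were -0.84 (edgeR adjusted p = 0.0596) and -1.23 (adjusted p = 0.0687), no longer called. Usp29 averaged 0.0931 ± 0.0951 CPM in EPI (n = 8) and 0.293 ± 0.208 CPM in SC fat (n = 7), which did not pass adjustment (exact permutation test, two-sided, p = 0.032, adjusted p = 0.101).

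In the other 5 groups no depot difference passed the test for Peg3 or Zim1. The share of genes called was 64.5% for GFP AAV, 64.7% for mInhbe AAV, 43.1% for WT chow, 36.0% for KO chow and 41.8% for KO HFD. Peg3 in GFP AAV mice came nearest, with 0.57 ± 0.26 in favour of EPI fat (edgeR adjusted p = 0.0566). In mInhbe AAV mice it was -0.24 ± 0.26 (adjusted p = 0.435), in WT chow -0.26 ± 0.32 (0.546), in KO chow -0.09 ± 0.36 (0.881) and in KO HFD -0.49 ± 0.34 (0.248). Zim1 lay between -0.48 and 0.43 in these 5 groups.

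Whether the diet response differed between depots was tested directly. In WT mice the EPI minus SC difference of the HFD response was -1.08 ± 0.47 for Peg3 (edgeR adjusted p = 0.0666) and -1.38 ± 0.67 for Zim1 (adjusted p = 0.109), where 33.3% of genes were called. Neither passed, so a response confined to SC fat is not shown. limma-voom with quality weights called both, at -1.60 (adjusted p = 2.57e-05) and -2.01 (adjusted p = 0.000798). In KO mice the differences were -0.40 ± 0.50 (edgeR adjusted p = 0.698) and 0.54 ± 0.78 (adjusted p = 0.75), with 3.96% of genes called.

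Over the 101 libraries, with values centred on the mean of each experiment and depot, Pearson's r between Peg3 and Zim1 was 0.855, the highest of 13805 genes for both. That r holds the mInhbe AAV and knockout differences by which the genes were chosen, and so do the lists of like genes made from it. Centred on each group's mean, which removes the group differences, r was 0.821, again first for both. These values describe libraries that share an experiment, a depth and a depot. After Zim1, the genes most like Peg3 included Emp1 (0.81), Pmepa1 (0.788) and Vnn1 (0.768). After Peg3, those most like Zim1 were Ldlrad4 (0.78), Dmxl2 (0.715), Adap2 (0.71) and Pik3cb (0.689). Centred on group means, Tjp1 (0.815), Itih5 (0.814), Phactr2 (0.803) and Cped1 (0.801) followed for Peg3. Rnf125 (0.692), Katnal1 (0.679), Insr (0.674) and Cep85l (0.666) followed for Zim1. Usp29 reached 0.524 with Peg3 and 0.562 with Zim1 across groups, and 0.107 and 0.158 within them, where its few reads give little resolution. Among the 13805 genes, Peg3 was at rank 46 and Zim1 at rank 23 for Usp29 across groups, so other genes were more like it. Within groups they were at ranks 3512 and 2318.

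**Figure D5:**
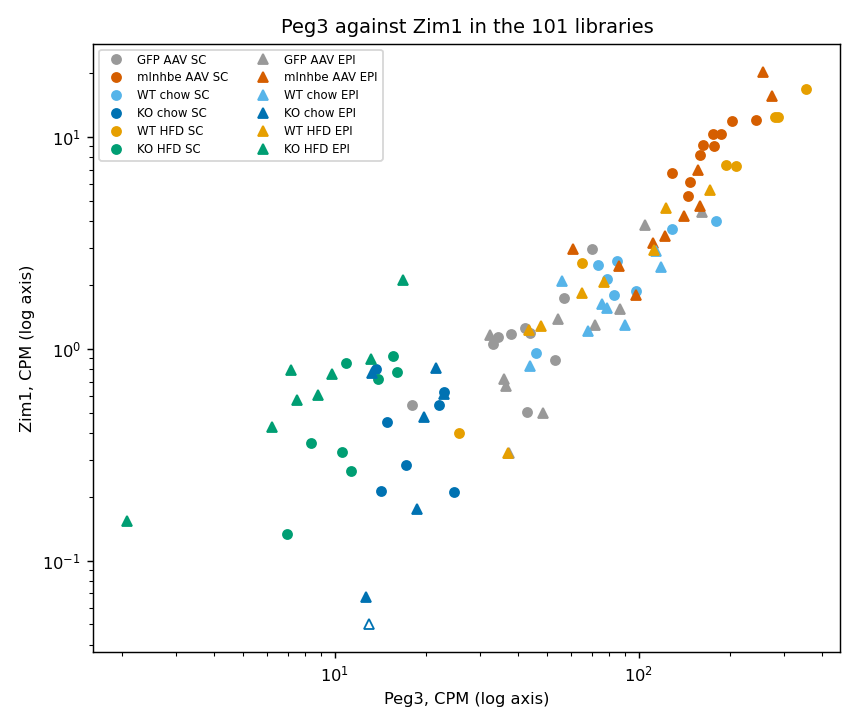
Zim1 against Peg3 in the 101 libraries, both in CPM on log axes; circles are SC and triangles EPI fat, colours are groups, and the open triangle is the library with 0 Zim1 reads, drawn at 0.05. KO libraries fill the lower left, at or below 24.6 CPM of Peg3 and 2.11 CPM of Zim1.

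Of the 5 nearest genes on each side, 4 passed the filter in most fits, all zinc finger genes on the Usp29 side. None was called in the knockout contrasts on chow, in the KO contrast on HFD in EPI fat or with mInhbe AAV in EPI fat. Zfp772 was 0.40 ± 0.13 higher with mInhbe AAV in SC fat (edgeR adjusted p = 0.0241). Zfp773 was 1.17 ± 0.33 higher in KO than WT SC fat on HFD (adjusted p = 0.0109), and with HFD in WT SC fat it changed by -1.58 ± 0.32 (adjusted p = 0.000195). Zfp954 rose with HFD in EPI fat of both genotypes, by 0.36 ± 0.11 in WT (adjusted p = 0.00558) and 0.35 ± 0.11 in KO mice (adjusted p = 0.0134). Between depots all 4 were called in at least 1 group. Zfp773 was lower in EPI than SC fat in GFP AAV (-1.16 ± 0.33), mInhbe AAV (-1.61 ± 0.33), WT chow (-1.32 ± 0.34) and KO HFD mice (-0.91 ± 0.34), and higher in WT HFD mice (1.01 ± 0.36). Zfp772 was higher in EPI fat of GFP AAV mice, Zfp418 lower in mInhbe AAV mice and Zfp954 lower in KO chow mice. The share of all genes called was 27.2% for mInhbe AAV in SC fat, 18.9% for the knockout on HFD in SC fat, and 36.0% to 64.7% between depots. It was 0.253% and 0.658% for the knockout on chow in SC and EPI fat, and 1.16% for mInhbe AAV in EPI fat. At such shares no call among 4 genes says little. For the knockout on HFD in EPI fat 37.2% were called. With HFD 44.1% were called in WT SC fat, 54.1% in WT EPI fat and 38.7% in KO EPI fat.

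Beside the domain, 15 other genes of the imprinted gene network, a set of mainly imprinted growth-related genes known to be expressed together, were read from the same fits. With mInhbe AAV, 2 were called higher and 5 lower in SC fat, where 27.2% of all genes were called. In EPI fat 1 was called, higher, beside 1.16% of all genes. In the knockout on chow 1 was called, lower, in each depot, beside 0.253% of genes in SC and 0.658% in EPI fat. On HFD 2 were lower in SC fat (18.9% of genes called), and 2 were higher and 6 lower in EPI fat (37.2% called). In SC fat with mInhbe AAV the smallest p-values after Mest were those of Ndn (-0.47 ± 0.11), Igf2r (-0.20 ± 0.06) and Dcn (0.38 ± 0.12), which is also in the progenitor and fibroblast list. The list's median log2 fold change in these 6 contrasts lay between -0.337 and -0.0399, beside medians of all genes between -0.0243 and 0.00596. The gene called in all 6 was Mest, which encodes an enzyme linked to fat expansion. Its log2 fold change with mInhbe AAV was 2.10 ± 0.28 in SC and 2.38 ± 0.24 in EPI fat. In the knockout it was -3.75 ± 0.36 in SC and -4.09 ± 0.22 in EPI fat on chow, and -4.71 ± 0.34 and -1.52 ± 0.19 on HFD. The edgeR adjusted p-values of these 6 changes ran from 6.62e-14 to 6.28e-05. The list was chosen with earlier results of these data known, so these p-values are not independent of that choice.

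HFD in WT SC fat raised 2 of the 15 and lowered 2, where 44.1% of all genes were called. They were Mest (5.24 ± 0.34) and the signalling protein gene Gnas (0.41 ± 0.10), and Gatm (-0.75 ± 0.17), which makes a creatine precursor, and the preadipocyte factor Dlk1 (-1.30 ± 0.44). In EPI fat of WT mice, where Peg3 did not pass the test, 5 rose and 4 fell, beside 54.1% of all genes called. Among them were Igf2r (1.31 ± 0.09), the clearance receptor of the growth factor IGF2, the zinc finger gene Plagl1 (-2.28 ± 0.23), Gatm (1.48 ± 0.15) and Mest (2.07 ± 0.19). In KO mice 1 of the 15 rose and 2 fell in SC fat (20.7% of all genes called), and 4 rose and 3 fell in EPI fat (38.7% called). HFD raised Mest there by 4.28 ± 0.36 in SC and 4.64 ± 0.23 in EPI fat, while Peg3 differed by -0.40 and -0.75. The adjusted p-values of these diet changes were 0.0164 or less in edgeR.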

How the data were processed

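The deposited values are estimated counts per gene (Entrez identifiers), made by the authors, in 1 table per experiment; 2.95% and 2.93% of the cells are not whole numbers and were rounded. The submitters' processing notes list mm10 as the build. Which aligner and counter were run, and whether molecular identifiers were collapsed, is not given in the sources used here. Gene symbols were found for 24375 of 24475 identifiers. Positions and promoter windows are RefSeq (GRCm38.p6), and exon lengths GENCODE. The members and gene lists were chosen with earlier results of these data known, and the Zim1 to Peg3 ratio was tested after results were seen.

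Each depot of each table was fitted with edgeR 4.0.16 (TMM, filterByExpr, robust quasi-likelihood F test, Benjamini-Hochberg over all genes tested, threshold 0.05). Depot contrasts used both depots of a table. The analysis plan assumed whole counts. Alternatives used DESeq2 1.42.0, limma 3.58.1 (voom with quality weights), RLE factors, no filter, 2 groups alone, a replicate block and marker scores. Usp29 and the ratio were compared by permutation over libraries with SciPy 1.17.1 (exact under 10 libraries a group, otherwise 100000 resamples). Intervals and limits cover counting error only. The fits were tested on simulated data. Genes named are the members, domain, neighbours and network list, with up to 4 network genes a contrast by smallest p, and the 5 genes most like each member, of which 1 is not reported here. Replicate numbers were not used as pairs in the main fits, and whether they mark libraries of the same mouse is not known. No 2 libraries of a group agreed within sampling noise (383 pairs). P-values measure the spread between these libraries.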

Additional observations from a re-analysis of the deposited data

Results flagged for a closer look

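In 34 combinations of gene and group with 4 to 10 libraries, the lone highest or lowest library was compared with the rest, and 5 stood apart. The cut-offs give about 1 in 20 by chance for normally spread values. That rate need not hold for skewed levels or for groups with 1 or 2 reads, so no excess is read from the 5. Zim1 was at 2.95 CPM in replicate 1 of GFP AAV SC fat, the highest of 10, with the next at 1.74 CPM. That library was also the highest of its group for Peg3, at 70.0 CPM. Zim1 was at 2.11 CPM in replicate 1 of KO HFD EPI fat, the highest of 8, with the next at 0.892 CPM. It too had the most Peg3 of its group, 16.8 CPM.

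The other 3 were single libraries with Usp29 reads in groups otherwise at 0: 0.0608 CPM in replicate 2 of WT chow EPI fat, 0.125 CPM in replicate 1 of KO chow EPI fat and 0.0771 CPM in replicate 4 of KO HFD EPI fat. These values are 1 or 2 reads each. None of the 4 tests of whether the diet response differed between depots passed the threshold.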

How the results depend on the processing

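The 6 mInhbe AAV and knockout contrasts kept their sign for Peg3 and Zim1 under every setting run, each within 1 SD between libraries (0.68 for Peg3 and 0.96 for Zim1 on the log2 scale). The HFD change in WT SC fat was called for both genes except for Peg3 with the 2 groups alone (1.18, adjusted p = 0.0522); leaving out each library in turn gave 0.98 to 1.46 for Peg3 and 1.66 to 2.15 for Zim1, all called. The WT HFD depot difference, -1.59 to -1.14 for Peg3 and -2.15 to -1.59 for Zim1 with 1 library left out, lost its call without the 4 libraries low in lymph node transcript (-0.84 and -1.23). The settings that leave out named libraries were chosen after seeing the data. For Peg3 in KO EPI fat on HFD, calls appeared with RLE factors (-0.79), DESeq2 (-0.80), the epididymis score (-0.85) and the 2 groups alone (-0.80). The diet by depot difference in WT mice was called by limma-voom (-1.60 for Peg3, -2.01 for Zim1) and without 2 libraries rich in Alb (-1.28 and -1.60). limma-voom also called Zim1 lower in EPI fat after mInhbe AAV (-0.91). Signs of uncalled values turned for Zim1 between GFP AAV depots with limma-voom (-0.46) and without 2 GFP libraries (-0.10), for Peg3 with HFD in WT EPI fat with the progenitor score (-0.06), and between WT chow depots Peg3 came to 0 without the 4 libraries. The cause was not tested. The ratio difference ran from 1.90 to 2.68 (diet) and 0.86 to 1.11 (depot), and the Usp29 difference from 0.211 to 0.291 CPM, with 1 library left out.

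With the replicate block, Zim1 in KO EPI fat on HFD was called (1.32, edgeR adjusted p = 0.0446), and the block changed no other call of Peg3 or Zim1. In 0 of 16 contrasts did every same-numbered pair of libraries correlate above 0.1, which cannot show that no pairs share a mouse. Between depots, same-numbered pairs above 0.1 ran from 0 of 10 in mInhbe AAV mice to 4 of 8 in WT chow and KO HFD mice.

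Counts of called genes moved by more than 1.5 times in 32 of 196 alternatives. For mInhbe AAV, 3801 in SC fat became 5800 (limma-voom), 220 (lymph node score) and 1985 (progenitor score), and 173 in EPI fat became 314 (DESeq2), 332 (limma-voom), 76 (block) and 266 (epididymis score). For the knockout on chow, 36 in SC fat ranged from 23 to 272 and 99 in EPI fat from 63 to 256. On HFD, 2688 in SC fat became 5577 (limma-voom) and 4037 (lymph node score), and 5590 in EPI fat became 862 (progenitor score). HFD in SC fat called 6276 genes in WT mice and 3867 with the 2 groups alone, and 2948 in KO mice, 6851 with limma-voom and 6463 with the 2 groups alone. The WT HFD depot contrast called 6312 and 3646 with the 2 groups alone, and the KO diet by depot contrast 613 and 1160 with limma-voom. For mInhbe AAV by depot, 2081 became 4 (replicate block) and 4702 (limma-voom). For genotype by diet, 304 in SC fat became 569 (DESeq2), 2537 (limma-voom) and 466 (progenitor score). In EPI fat 2487 became 3961 (limma-voom) and 601 (progenitor score). Usp29 is limited by depth throughout.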
